A study of Mus musculus with 5 samples.

Results

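The genes described here are 10 negative regulators of MAP kinase signalling: the dual-specificity phosphatase genes Dusp1, Dusp2, Dusp4, Dusp5, Dusp6 and Dusp10, the Sprouty genes Spry1 and Spry2, and the Spred genes Spred1 and Spred2. They were taken by symbol from the platform annotation, and every probe set with exactly 1 of these symbols was included, which gave 23 probe sets of 34945 with 1 symbol and 10 genes of 18193. Their RNA was compared between CD8 T cells of 1 antigen specificity from 2 sources. The first was G9C8, an insulin-reactive cytotoxic T cell clone grown in vitro, of which 3 separately frozen vials were thawed. The second was spleen cells of NOD.G9C8 transgenic mice, whose T cells express this clone's receptor on the NOD/LtJ background, with 2 mice aged 4 to 8 weeks. Both sources were stimulated over 3 days with the same insulin B chain peptide (10 µg/ml), followed by 2 days of rest in IL2 (5 IU/ml), and each vial and each mouse gave 1 array.

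The arrays correlated at r = 0.977 to 0.980 within the clone, 0.983 within transgenic cells and 0.850 to 0.861 across them. These values are over log2(signal + 20) of the 12446 genes tested, each by its brightest probe set. With 5 arrays their number limits the precision. The vials are samples of 1 clone, so their spread does not cover differences between clones, and no age applies to it. The transgenic cultures began as whole splenocytes, and no sort before RNA extraction is named. Differences are given as clone minus transgenic on the log2(signal + 20) scale, with p-values from limma adjusted by Benjamini-Hochberg over 12446 genes. An adjusted p under 0.05 counts as a call. Each gene is represented by its brightest probe set with a mean signal of at least 88.2.

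MAP kinase cascades pass a signal from an activated receptor through Ras, RAF and MEK to ERK, and parallel cascades lead to JNK and p38. Dual-specificity phosphatases that act on MAP kinases end the signal by removing phosphate from both the threonine and the tyrosine of the kinase's activation loop. Many of them are transcribed in response to the kinase they switch off, so that their RNA is often read as a trace of recent signalling. Sprouty and Spred proteins act further up, between the receptor and RAF, and in T cells these brakes shape how strongly antigen receptor signals reach ERK.

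The phosphatase genes went in opposite directions. Dusp4 and Dusp5 were higher in the clone, and Dusp1, Dusp2, Dusp6 and Dusp10 were lower. Both Spred genes were called higher in the clone by their brightest probe sets, but for Spred2 the direction depended on the probe set. Its probe set 1441415_at was called lower in the limma test of every probe set (-0.60, adjusted p = 0.0488). With its probe sets averaged, Spred2 differed by 0.27 and was not called (limma adjusted p = 0.303). Spry1 was not called, and Spry2 was too dim to be tested. In all, 4 of the 9 members tested were called higher and 4 were called lower, a share of 88.9%. The clone differed from the transgenic cells over much of the transcriptome, and 43.8% of all genes tested were called, 22% as higher and 21.7% as lower. The median absolute difference was 1.18 over the 9 members and 0.39 over all genes tested. Macrophage and monocyte markers summed to 1559 to 1972 in the clone and 5497 and 8068 in transgenic cells, where Lyz2 alone gave 3497 and 5549. Without Lyz2 the sums were 1285 to 1645 in the clone and 2000.4 and 2519 in transgenic cells. Of these markers Cd68 and Fcgr1 ran the other way, with all clone arrays above, and were not called. The part of such cells in the differences above was not tested. In bulk RNA, fewer cells of a type and less RNA per cell cannot be told apart.

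**Figure D1:**
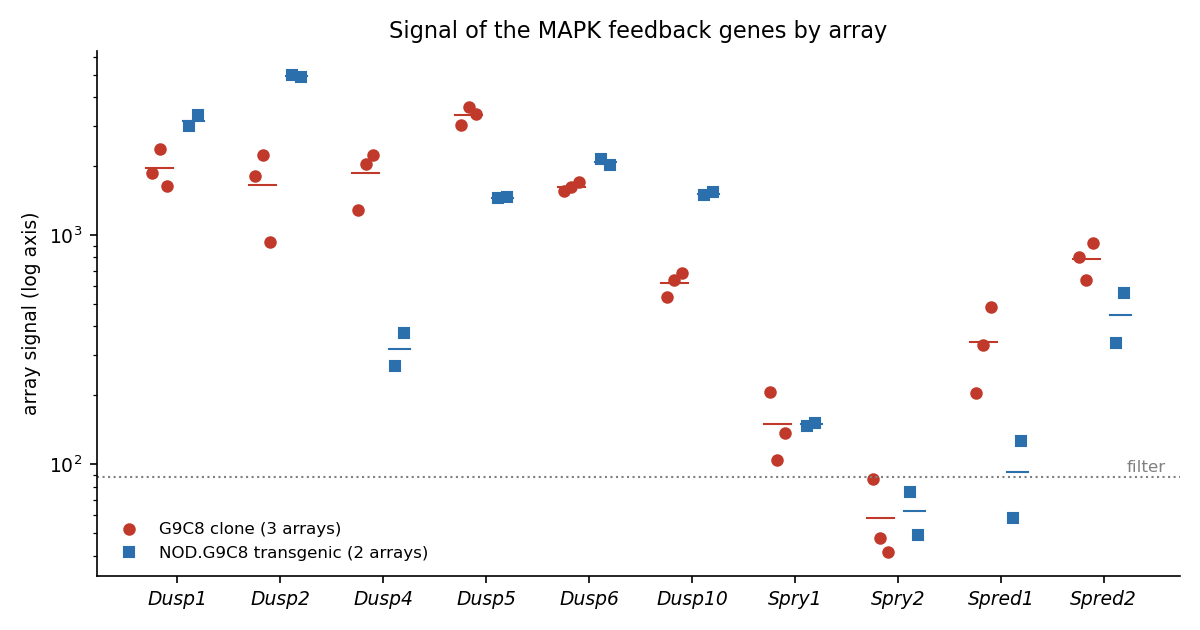
Array signal (log axis) of each gene, with 3 clone arrays as red circles left of 2 transgenic arrays as blue squares, horizontal bars at the group means and a dotted line at the filter of 88.2. Dusp4 and Dusp5 sit higher on all clone arrays, Dusp2 and Dusp10 lower, and Spry1 and Spry2 overlap between groups.

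Dusp4, on chromosome 8, encodes a nuclear phosphatase of ERK that is induced by ERK itself. Its probe set 1428834_at gave 1288, 2046 and 2241 on the clone arrays, against 267 and 373 on the transgenic arrays. The lowest clone signal thus lay well above the highest transgenic signal. The difference was 2.44 (SE 0.24, 95% interval 1.90 to 2.99), 5.44-fold on this scale, with an adjusted p of 8.7e-05 (limma). Of all genes tested, 1.26% were higher in the clone by more.

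Dusp5, on chromosome 19, encodes a nuclear phosphatase that acts on ERK and not on JNK or p38. Its signals were 3011, 3606.5 and 3387 in the clone and 1453 and 1458 in transgenic cells, so the groups did not overlap and the 2 mice were nearly identical. The difference was 1.18 (SE 0.10, interval 0.95 to 1.42, adjusted p = 4.66e-05).

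Dusp1, on chromosome 17, is an immediate early gene whose nuclear product acts on p38 and JNK as well as ERK. Signals of 1871, 2381 and 1634 in the clone stood against 2973 and 3322 in transgenic cells, without overlap. The difference was -0.69 (SE 0.15, interval -1.04 to -0.34, adjusted p = 0.00639). Without the second transgenic array it was -0.61 and no longer called (adjusted p = 0.0560).

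Dusp2, on chromosome 2, was first described as a phosphatase of activated lymphocytes and is also nuclear. It gave 1814, 2233 and 932 in the clone, against 5005 and 4892 in transgenic cells. Clone replicate 3 stood 1.09 under the mean of replicates 1 and 2 on the log2 scale, and the clone SD of 0.65 was larger than that of 97.3% of genes tested, whose median was 0.16. The groups still did not overlap, and the difference was -1.65 (SE 0.30, interval -2.34 to -0.96, adjusted p = 0.00247), or -1.29 without that array.

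Dusp1 and Dusp2, both lower in the clone, and Dusp5, which was higher, are shown with the bases before their annotated starts. They were picked because each carries a different match to a signal-responsive element. A link between motif and direction was not tested. The sequences are RefSeq's for GRCm38.p6, from 150 bases before the start to the base before it, read 5′ to 3′ along the gene. Capitals mark the cAMP response element (CRE, TGACGTCA) in Dusp1, the EGR motif (GCGNGGGCG) in Dusp2, and in Dusp5 a tandem pair of CArG boxes, the element bound by serum response factor, followed by the CRE core (TGACG) on the other strand.
Dusp1, chr17:26508473-26508622, minus strand: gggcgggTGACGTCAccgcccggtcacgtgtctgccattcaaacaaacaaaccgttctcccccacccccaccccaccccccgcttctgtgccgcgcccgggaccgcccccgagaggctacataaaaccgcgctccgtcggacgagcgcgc
Dusp2, chr2:127336009-127336158, plus strand: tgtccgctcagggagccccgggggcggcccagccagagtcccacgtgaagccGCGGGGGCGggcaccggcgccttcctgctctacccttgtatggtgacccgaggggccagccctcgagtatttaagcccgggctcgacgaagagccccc
Dusp5, chr19:53528995-53529144, plus strand: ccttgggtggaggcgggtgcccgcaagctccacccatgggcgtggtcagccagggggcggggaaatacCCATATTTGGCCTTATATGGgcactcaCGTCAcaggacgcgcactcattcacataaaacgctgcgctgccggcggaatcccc

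Windows from 250 bases before to 50 after the start were matched for 9 of the 10 genes and searched on both strands. A CRE occurred in Dusp1 alone of the 9, beginning 143 bases before the start, against 1.79% of 32851 windows in the table. The CRE core, which also lies within every CRE, was found in Dusp1, Dusp2, Dusp5 and Spred2, against 20.8% of windows. CArG boxes were found in Dusp5 alone, at 82 and 72 bases before the start, and in 1.63% of windows. The EGR motif was found in Dusp2 alone, 98 bases before the start, and in 5.55% of windows. The SP1 motif (GGGCGG), which partly overlaps the EGR match in Dusp2, was found in 7 of the 9, against 35.7% of windows. The AP-1 motif (TGANTCA), the ETS motif (CCGGAAGT) and the NF-kappaB motif were found in none of the 9, against 7.81%, 3.89% and 8.46% of windows. The CCAAT box was found in 4 of the 9 (37.4% of windows) and the TATA motif (TATAAA) in none (13.6%). All 9 windows were richer in G and C than the table's median of 52.7%, at 57.0% to 72.3%, and shares of GC-rich motifs move with that. The matches describe these windows and were not tested for binding.

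**Figure D2:**
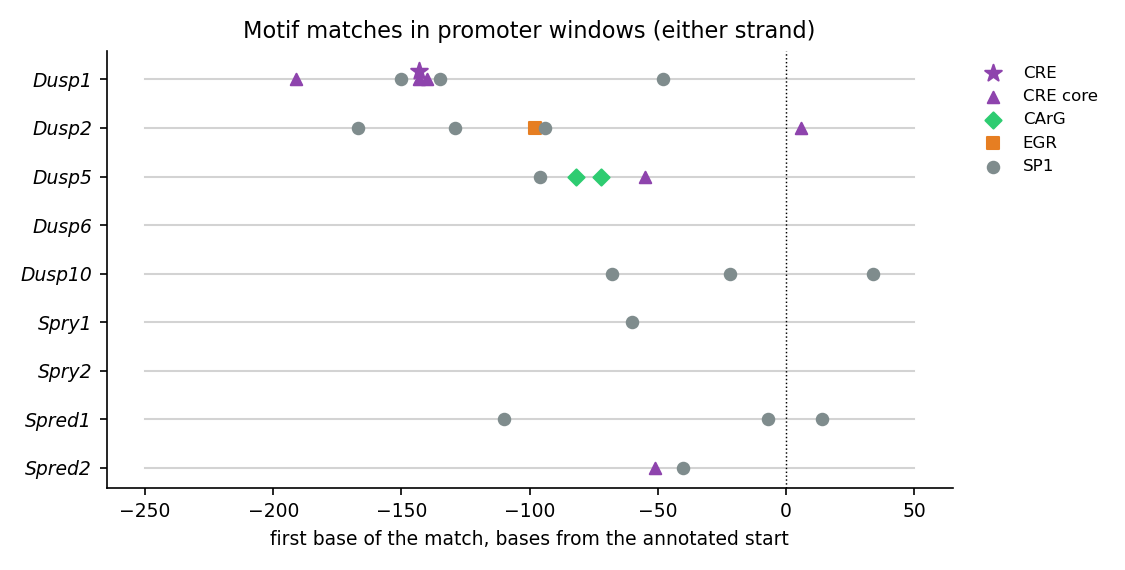
First base of each CRE, CRE core, CArG, EGR and SP1 match, in bases from the annotated start, in the promoter windows of 9 genes, with each motif as its own symbol. The tandem CArG boxes stand in Dusp5 at -82 and -72, the CRE in Dusp1 at -143 and the EGR match in Dusp2 at -98, and the windows of Dusp6 and Spry2 hold none of the motifs drawn. CCAAT boxes are not drawn.

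Dusp6, on chromosome 10, encodes the cytoplasmic phosphatase of ERK and is a commonly used readout of ERK activity. It gave 1550.4, 1615 and 1701 in the clone, against 2147 and 2023 in transgenic cells. The groups did not overlap, but the difference was small, -0.36 (SE 0.10, interval -0.58 to -0.14, adjusted p = 0.0154). It was no longer called without the first (-0.32, adjusted p = 0.119) or the second transgenic array (-0.40, adjusted p = 0.0553). By root mean square distance over the 5 arrays, with each gene centred on its own mean, the genes tested that ran most like Dusp6 were Tmem132a (0.0240), Birc3 (0.0244), Capza1 (0.0244), Pts (0.0248) and Atg5 (0.0278). This likeness over 5 arrays in 2 groups is a description and was not tested.

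Dusp10, on chromosome 1, encodes a phosphatase with preference for JNK and p38. Its brighter probe set 1417164_at gave 534, 634 and 684 in the clone, against 1490.2 and 1541 in transgenic cells, a clear separation. The difference was -1.28 (SE 0.13, interval -1.57 to -0.98, adjusted p = 0.000114). The dimmer probe set 1417163_at gave 82.3, 123 and 72.8 in the clone, against 236 and 133 in transgenic cells. It differed by -0.84 and was not called when all 45037 probe sets were tested without a filter (adjusted p = 0.117).

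**Figure D3:**
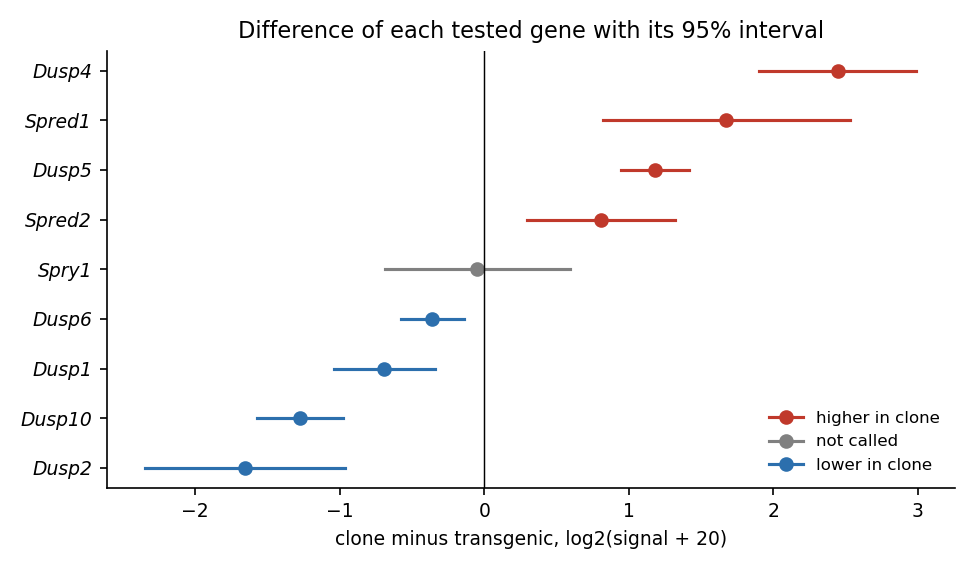
Difference of each tested gene, clone minus transgenic on the log2(signal + 20) scale, with its 95% interval from limma, in red where called higher in the clone, blue where called lower and grey where not called. Dusp4 is highest at 2.44 and Dusp2 lowest at -1.65, and the interval of Spry1 alone spans 0.

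The Sprouty genes were dim in both sources. Spry1, on chromosome 3, encodes an inhibitor of the Ras to ERK pathway. It gave 206, 105 and 137 in the clone, against 147 and 152 in transgenic cells, so the clone arrays lay on both sides of the transgenic ones. The difference was -0.05, and its interval, -0.69 to 0.59 (adjusted p = 0.910), leaves differences of up to that size in either direction possible. Spry2, on chromosome 14, encodes the best studied family member, which binds the ubiquitin ligase CBL. Its brighter probe set gave 86.3, 48.0 and 41.6 in the clone, against 75.5 and 49.3 in transgenic cells. The other gave 31.9, 43.2 and 62.3 in the clone, against 71.8 and 65.3 in transgenic cells. Both stood under the filter, and in the test of every probe set they differed by -0.09 (adjusted p = 0.885) and -0.45 (adjusted p = 0.334). The files hold no detection calls, so it is not known whether Spry2 lay above background.

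Spred1, on chromosome 2, encodes a membrane-bound inhibitor that brings neurofibromin, a GTPase-activating protein, to Ras. Its main probe set 1423160_at gave 205, 332 and 486 in the clone, against 58.7 and 126 in transgenic cells. All clone arrays were higher, but the groups were more scattered than most genes, with a gap of 0.89 on the log2 scale between the mice, against a median gap of 0.15. The difference was 1.67 (SE 0.37, interval 0.82 to 2.53, adjusted p = 0.00674). Without the second clone array the value was 2.79, without the first transgenic array 1.83, and without the second transgenic array 3.54. In each of these cases 1423161_s_at became the brightest probe set.

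Of the 8 probe sets of Spred1, 5 passed the filter. In transgenic cells the group mean was above 88.2 for 1423160_at only of these 5, so the others passed only through their clone signals, and their number supports nothing. The largest difference was that of 1423161_s_at, with 257, 298 and 535 in the clone, against 11.4 and 82.6 in transgenic cells, and 2.69 on the log2 scale. Probe sets of the _s_at and _x_at types can bind more than 1 transcript, and Spred1 has 4 of them. Of the 3 below the filter, 1443652_x_at was scattered in both groups (27.0, 17.2 and 102 in the clone, 23.6 and 76.7 in transgenic cells) and differed by -0.12.

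Spred2, on chromosome 11, encodes a close relative of Spred1 that also restrains the step from Ras to RAF. Probe set 1434403_at gave 801, 638 and 925 in the clone, against 339.9 and 556 in transgenic cells, without overlap but with a narrow gap. The difference was 0.81 (SE 0.22, interval 0.30 to 1.32, adjusted p = 0.0180). It was not called without the third clone array (0.69, adjusted p = 0.0554) or the first transgenic array (0.47, adjusted p = 0.156).

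Of the 5 probe sets of Spred2, 4 were above 0 and 1 below. Beside 1434403_at, those above were 1436892_at (0.58, adjusted p = 0.168 in the test of every probe set), 1441802_at (1.38, 0.0694) and 1423001_at (0.87, 0.0211), the last 2 of them dimmer than the filter. Probe set 1441415_at ran the other way, with 351, 361 and 449 in the clone, against 509 and 689.7 in transgenic cells. In the test of every probe set it was called lower (-0.60, adjusted p = 0.0488), close to the threshold, while 1434403_at was called higher (0.81, adjusted p = 0.0443). When its probe sets were averaged instead, Spred2 differed by 0.27 and was not called (adjusted p = 0.303). Which transcript regions these probe sets cover was not analysed here.

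**Figure D4:**
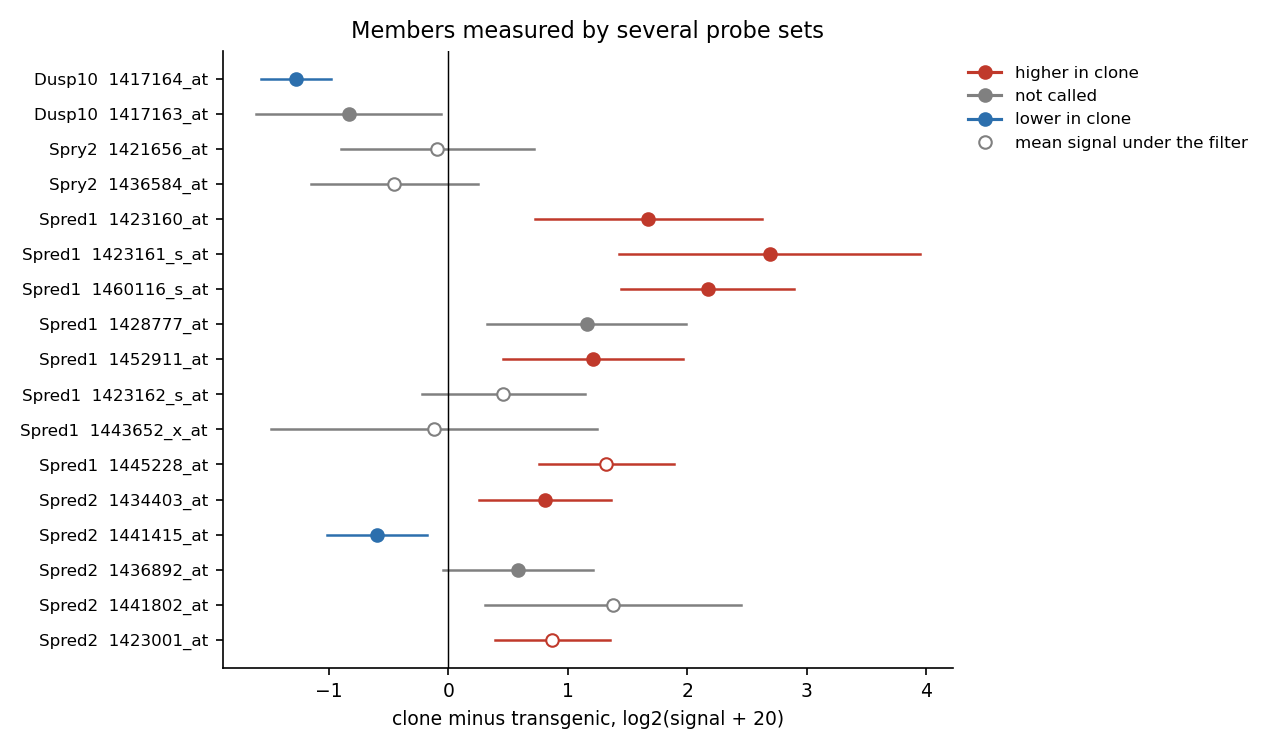
Difference of each probe set of Dusp10, Spry2, Spred1 and Spred2, clone minus transgenic on the log2(signal + 20) scale, with 95% intervals from the test of all 45037 probe sets and open circles where the mean signal was under the filter. The probe sets of Spred1 lie mostly above 0, at up to 2.69, and those of Spred2 lie above 0 for 4 of 5.

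Over all 23 probe sets and without a filter, 9 were called higher in the clone and 5 lower, and 9 were not called. Of all 45037 probe sets 24.3% were called, 11.4% higher and 12.9% lower. Probe sets of 1 gene share its RNA and are not separate evidence. Among the 9 genes tested, the arrays of the 2 groups did not overlap for 8, against 64.5% of all genes tested. The clone arrays were all above for 4 (31.9% of all genes) and all below for 4 (32.6% of all genes). Of the 9, 5 were called with an absolute difference of at least 1, against 14.7% of all genes.

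The upstream Ras to ERK genes were set beside these brakes. Of 11 tested core genes of the Ras, RAF, MEK and ERK module, 2 were higher in the clone, 4 were lower and 5 were not called, a share called of 54.5% against 43.8% of all genes, with a median of -0.17 (all genes tested: -0.01). Braf, a RAF kinase gene, averaged 663 ± 126 in the clone and 1336 ± 125 in transgenic cells (SD, n = 3 and n = 2), a difference with an interval of -1.37 to -0.64 (limma adjusted p = 0.00126). With the mean over its probe sets Braf differed by -0.40 (adjusted p = 0.0431), outside that interval. The scaffold gene Ksr1 (-0.96) and the Ras relative Rras2 (-0.50, or -0.99 with the mean over its probe sets) were lower too, and the ERK5 gene Mapk7 was higher (1.27, adjusted p = 0.0235). Mapk7 was dim, at 131 ± 53.4 in the clone and 39.6 ± 7.64 in transgenic cells, and was not called without either transgenic array (adjusted p = 0.116 and 0.0616). It passed the filter only through the clone, so its call supports nothing. Ksr1 was not called without its _s_at probe set (-0.68, adjusted p = 0.0896).

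Ras activators and Ras GTPase-activating proteins were higher for 3, lower for 4 and not called for 6 of 13 tested. The share called was 53.8% against 43.8% of all genes, with a median of -0.09. The calcium-dependent exchange factor gene Rasgrp2 was the most changed, at 345 ± 39.1 in the clone and 3201 ± 483 in transgenic cells (SD, n = 3 and n = 2), or -3.14 (limma adjusted p = 1.42e-06). The genes of GTPase-activating proteins Rasa3 (-1.65), Rasa2 (-1.07) and Rasal3 (-0.75) were lower as well. Another such gene, Rasa1, named after its values were seen, was higher (0.33, limma adjusted p = 0.0218), and the neurofibromin gene Nf1 was not called (0.44, adjusted p = 0.0805). Other exchange factor genes tested, also named after their values were seen, did not follow Rasgrp2. Rasgrp1 was bright and not called (-0.09, limma adjusted p = 0.575). Sos1 was not called (-0.43, adjusted p = 0.0625) and Sos2 was higher (0.54, adjusted p = 0.0404). Among partners and relatives of Sprouty and Spred, 3 were higher, 1 lower and 6 not called of 10 tested, with a median of 0.50. The share called was 40% against 43.8% of all genes, and Grb2 and Nf1 are counted in both of these lists. Cblb, a ubiquitin ligase gene that restrains T cell activation, was lower (607 ± 69.6 in the clone and 3481 ± 136 in transgenic cells, -2.49). Higher were Lztr1, an adaptor for Ras degradation (1.00), the adaptor gene Grb2 (0.74) and the phosphatase gene Ptpn11 (0.63). Ptpn11 differed by 0.13 with the mean over its probe sets and was then not called (adjusted p = 0.483), and Lztr1 by 0.66 with that mean and by 0.32 without its _x_at probe set.

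Other dual-specificity phosphatases, outside the 6 described above, were rarely called: 2 of 13 tested were higher, none was lower by limma (0 also at an unadjusted p under 0.05) and 11 were not called, a share of 15.4% against 43.8% of all genes, with a median of 0.22. Those 2 were Dusp19 (2114 ± 27.5 in the clone and 1251 ± 146 in transgenic cells, 0.75, limma adjusted p = 0.000585, or 1.27 without its _s_at probe set) and Dusp12 (0.54, adjusted p = 0.0186). Dusp12 was not called without the third clone array (adjusted p = 0.0564) or either transgenic array (0.0573 and 0.122). This list was drawn by family and is not limited to phosphatases of MAP kinases, unlike the 6 described above. The difference between this list and those 6 was not tested.

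The JNK and p38 cascade, the substrate side of Dusp1 and Dusp10, had 4 genes higher, 8 lower and 6 not called of 18 tested. The share called was 66.7% against 43.8% of all genes, with a median of -0.32. All 3 Gadd45 genes, stress-induced activators of a kinase upstream of p38 and JNK, were lower: Gadd45b (451 ± 77.5 in the clone and 1994 ± 341 in transgenic cells, -2.10), Gadd45g (-1.83) and Gadd45a (-1.56). Gadd45b differed by -1.29 with the mean over its probe sets. Gadd45a, at 79.8 ± 21.8 in the clone and 269 ± 10.5 in transgenic cells, passed the filter only through transgenic cells, so its call supports nothing. The same holds for Mapk11, also among those called lower, at 84.4 ± 12.9 in the clone and 195 ± 36.6 in transgenic cells. The kinase gene Map3k2 was lower as well (-1.17). The 4 genes called higher, named after their values were seen, were the p38 gene Mapk14 (0.36, limma adjusted p = 0.0109), its activating kinases Map2k3 (0.53, 0.0281) and Map2k6 (0.60, 0.00930), and the upstream kinase gene Map3k8 (1.12, 0.000780). Among 7 tested effector kinases of ERK and p38, 3 were lower and 4 were not called. None was higher by limma (1 at an unadjusted p under 0.05). The share called was 42.9% against 43.8% of all genes, with a median of -0.38. The lower ones were Rps6ka5, the MSK1 kinase gene (111 ± 43.2 in the clone and 537 ± 1.41 in transgenic cells, -2.14), the RSK2 gene Rps6ka3 (-1.26) and Mknk1 (-0.60), of which Mknk1 was not called with the mean over its probe sets (-0.34, adjusted p = 0.259).

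Of 22 tested genes listed for the transcriptional response to ERK, 6 were higher, 8 lower and 8 not called, with a median of -0.12. The share called was 63.6% against 43.8% of all genes, whose calls were split about evenly too. The list also holds the transcription factor genes Elk1 and Elk3, called higher, and Elk4, called lower, so it is not one of ERK-induced transcripts alone. Phlda1, a gene of a pleckstrin homology-like protein, was higher (1924, 2539 and 3575 in the clone, against 582 and 562 in transgenic cells). Its difference was 2.14 (SE 0.22, limma adjusted p = 0.000114). Etv5, an ETS factor gene downstream of ERK, was also higher (245, 179 and 295 in the clone, against 37.6 and 51.1 in transgenic cells, 2.00), but it passed the filter only through the clone, so its call supports nothing. Ier3, an immediate early gene, was lower (192, 134 and 104 in the clone, against 1657 and 2309.9 in transgenic cells, -3.63), and so was Fos (1115, 1002 and 923 in the clone, against 2746 and 3695.5 in transgenic cells, -1.64). Egr1, chosen after its values were seen as the classical ERK-induced gene, was bright in both sources, at 5550.0, 6207 and 5990.3 in the clone and 5720.3 and 6437 in transgenic cells, and differed by -0.04 (adjusted p = 0.769). The list as a whole was not tested.

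**Figure D5:**
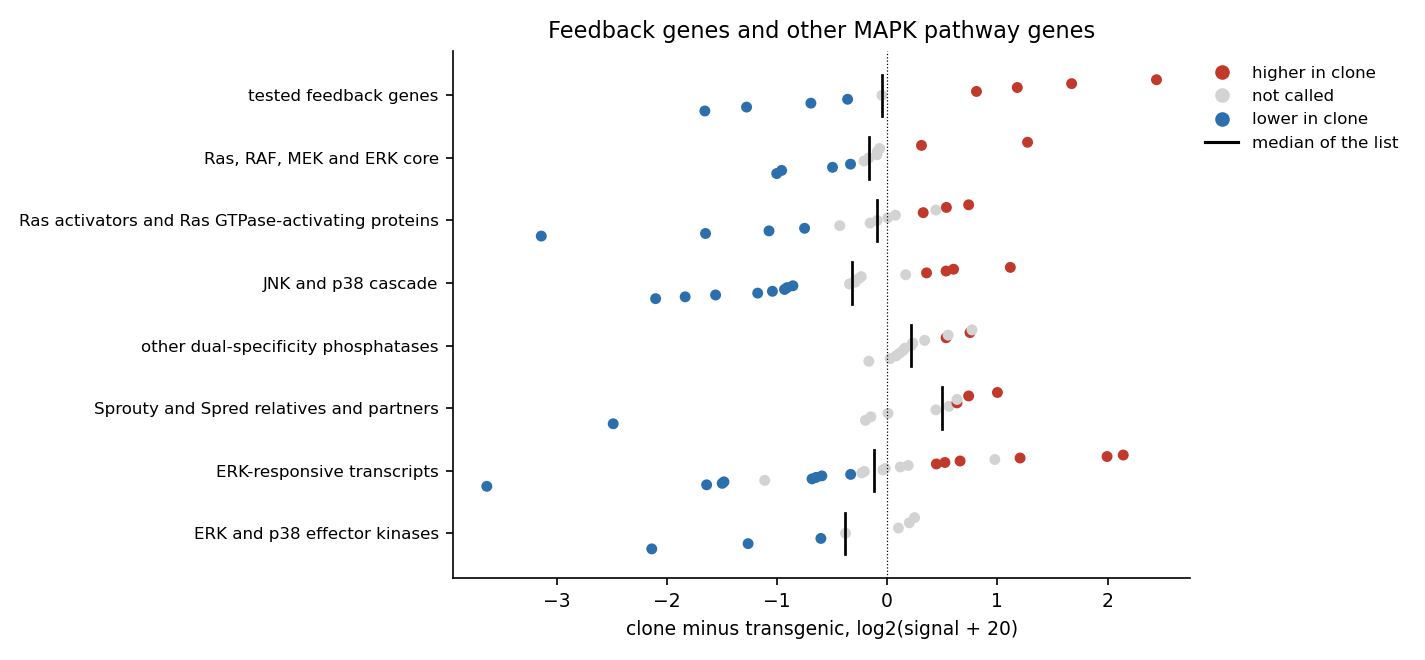
Difference of every tested gene of the feedback genes and of 7 other lists, clone minus transgenic on the log2(signal + 20) scale, in red where called higher in the clone, blue where called lower and grey where not called, with a black line at each list's median. List medians lie between -0.38 and 0.50, and single genes reach from -3.63 (Ier3) to 2.44 (Dusp4).

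The labelled cell type was checked on its markers. Counts of markers called stand beside 43.8% of all genes tested, 22% as higher and 21.7% as lower. Cd3e gave 5323 to 6498 in the clone and 4879 to 5325 in transgenic cells, and Cd8a and Cd8b1 were bright in both but lower in the clone. Of 7 CD8 T cell markers tested none was higher by limma (0 also at an unadjusted p under 0.05) and 4 were lower, the others being Cd2 (-1.75) and Cd3d (-0.49), and their sums were 63811 to 74274 in the clone and 82157 and 89657 in transgenic cells. Markers of other cells moved with the groups. Summed over 8 macrophage and monocyte markers the signal was 1559 to 1972 in the clone and 5497 to 8068 in transgenic cells, with 5 of 7 tested lower in the clone, and Lyz2 was the brightest (237 to 327 in the clone, 3497 and 5549 in transgenic cells). Of the lower ones Cd14 and Ctsh, named after their values were seen, passed the filter only through transgenic cells, so their calls support nothing. Without Lyz2 the sums were 1285 to 1645 in the clone and 2000.4 and 2519 in transgenic cells. Cd68 and Fcgr1 ran the other way, with all clone arrays above, and were not called (0.50, adjusted p = 0.0700, and 0.34, adjusted p = 0.193). Over 5 MHC class II genes the sums were 554 to 606 in the clone and 2689 and 3249 in transgenic cells, with 4 of 5 lower. Among these H2-Aa and H2-Ab1, named after their values were seen, passed the filter only through transgenic cells, so their calls support nothing. B cell markers summed to 876 to 1170.3 in the clone and 1376 and 1453 in transgenic cells, with 1 higher (Ebf1) and 1 lower (Cd79b, 2.7 to 46.0 in the clone, 594 and 654.5 in transgenic cells) of 5 tested. Ebf1 passed the filter only through the clone and Cd79b only through transgenic cells, so these calls support nothing. Dendritic cell markers summed to 544 to 621 in the clone and 905.5 and 1416 in transgenic cells, with 2 of 4 tested lower. NK cell markers summed to 215 to 268 in the clone and 1728 and 1934.5 in transgenic cells, with 1 of 2 tested lower. The brightest of them was Eomes, which CD8 T cells also express (62.8 to 90.3 in the clone, 1516 and 1700.2 in transgenic cells). Eomes passed the filter only through transgenic cells, so its call supports nothing. Ncr1, chosen like Ebf1 and Cd79b after its values were seen, was at 75.9 to 91.0 in the clone and 55.1 and 78.6 in transgenic cells. The brightest class II, B and dendritic markers were Cd74 (171 to 203.5 in the clone, 812 and 1209.5 in transgenic cells), Cd22 (245 to 376 in the clone, 191 and 349 in transgenic cells) and Itgax (103 to 129 in the clone, 367.5 and 800.1 in transgenic cells). No marker was at 0. Cd4 was dim throughout, at 32.1 to 44.2 in the clone and 39.1 to 50.6 in transgenic cells.

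Markers of neutrophils, red cells and CD4 T cells had no member called by limma of 2, 1 and 1 tested, and 0 at an unadjusted p under 0.05, with sums of 396 to 514, 154 to 200.4 and 169 to 204 in the clone and 486 to 524.5, 189 to 223 and 185 to 372 in transgenic cells. Fibroblast markers had 1 of 3 tested higher, against 22% of all genes, with sums of 603 to 671 in the clone and 434 and 552 in transgenic cells. The gene called, Dcn, passed the filter only through the clone, so its call supports nothing.

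The part of these other cells in the lower signals of Dusp1, Dusp2, Dusp6 and Dusp10 was not tested. The macrophage and monocyte sum of the second transgenic array was 1.47 times that of the first, or 1.26 times without Lyz2. Between the same arrays Dusp1 differed by 0.16, Dusp2 by -0.03, Dusp6 by -0.08 and Dusp10 by 0.05 on the log2 scale, second minus first. Spred1 and Spred2 differed by 0.89 and 0.68.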

How the data were processed

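RNA of 3 G9C8 clone cultures and 2 NOD.G9C8 transgenic spleen cultures was measured on Affymetrix Mouse 430 2.0 arrays. The deposited values are linear signal intensities per probe set made by the authors with GCOS, per the submitters' processing notes. Their trimmed mean, without 2% at each end, was 500.0 on every array to 1 decimal, and no detection calls were given.

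Of 45101 probe sets, 64 controls were left out, and genes were named only where the annotation gave 1 symbol (34945 probe sets, 932 with several symbols, 9160 with none). Intensities were taken as log2(signal + 20), and probe sets with a mean signal under the 40th percentile, 88.2, were dropped. The brightest probe set stood for each gene. The 12446 genes were tested by limma (version 3.58.1, under R 4.3.3; lmFit, then eBayes allowing a trend with intensity), two-sided and adjusted by Benjamini-Hochberg. The procedure was tested on simulated data. Replicates are vials of 1 clone and spleens of 2 mice, so p-values measure only the spread between these samples.

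The genes, the pathway and marker lists and the motifs were chosen with earlier results of these data known. Named from each pathway list were up to 4 called genes with the largest absolute difference, from each marker list the brightest gene, with Cd8a, Cd8b1 and Cd3e always, and for Dusp6 the 5 genes nearest to it. The brightest CD8, CD4, neutrophil, red cell and fibroblast markers, not named above, were Ptprc, Foxp3, Ltf, Hba-a1 and Col1a2. None of them was called. Among markers, Cd2, Cd3d, Cd4, Cd68, Fcgr1 and Dcn were named outside this rule. Alternatives changed the normalization, pseudocount, floor, filter, choice of probe sets, eBayes settings, replicate block and replicates. The promoter table is RefSeq's for GRCm38.p6.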

Additional observations from a re-analysis of the deposited data

How the results depend on the processing

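The calls of Dusp2, Dusp4, Dusp5, Dusp10 and Spred1 kept their direction and side of the threshold under all 12 other settings and with each array left out. Over the 9 genes, 144 of 152 such values did so, 6 were no longer called and 2, both of Spry1, changed sign (0.039 with quantile normalization and 0.15 without clone replicate 2, within a range of -0.28 to 0.15 with an array left out). Spry1 fell below the stricter filter, at the 60th percentile, and has no value there. For the 25 named pathway genes 411 of 420 values did so and 9 were no longer called. With an array left out, 3 to 4 of the feedback genes were called higher and 2 to 4 lower, with 2 lower without transgenic replicate 2. The same ranges were 0 to 2 for higher calls in the Ras, RAF, MEK and ERK core, 1 to 3 for Ras activators and GTPase-activating proteins, 1 to 4 for the JNK and p38 cascade and 1 to 3 for other dual-specificity phosphatases. For the probe sets of the feedback genes they were 5 to 8 higher and 1 to 5 lower. Higher calls in the core numbered 1 with the stricter filter, without _s_at and _x_at probe sets, without the eBayes trend and with the replicate block. With the block they numbered 2 in the JNK and p38 cascade and 1 among other phosphatases, where Dusp12 was lost (adjusted p = 0.0714). Every probe set as its own row gave 1 lower call among other phosphatases, 2 lower among Sprouty and Spred partners and 1 higher among effector kinases. The mean over probe sets gave 2 lower among partners and 1 higher among effector kinases, as did quantile normalization for the kinases (1). Member probe sets called higher numbered 4 with a floor of 50 and 5 with the stricter filter, and those called lower numbered 2 with a floor of 50 and 2 without the eBayes trend. Over all genes tested 2742 were called higher and 2706 lower, and 1938 and 1697 without transgenic replicate 1. The cause of these changes was not tested. Same-numbered samples share only a number: their deviations from the group means correlated at r = -0.03 and -0.08 over 12446 genes, and the replicate block gave 2282 higher and 2351 lower calls. The number of arrays, 3 and 2, and signals near the filter limit what could be called.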
